A study of Rattus norvegicus with 6 samples.

Results

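Heme is made from glycine and succinyl-CoA by a chain of enzymes, and 8 of them (Alas1, Alas2, Alad, Uros, Urod, Cpox, Ppox and Fech) were described together with Slc4a1, the anion exchanger of the red cell membrane, in fat from newborn rats. The members were the 9 genes of this list, found by taking every probe set that the platform annotation pairs with exactly 1 symbol from it, which gave 11 of the 31042 probe sets that are not controls. The enzyme that acts between Alad and Uros is not analysed here. Of the 11 probe sets, 3 (both for Uros and 1 of 2 for Slc4a1) had a mean signal under the cutoff for dim probe sets (88.2 intensity units) and were not tested, so 8 probe sets for 8 genes were.

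The arrays came from mesenterial adipose tissue, the fat along the vessels of the gut, of wildtype Sprague-Dawley newborns whose dams ate feed with 0 IU vitamin D per kg (deficient group, 3 arrays) or with 1000 IU per kg (adequate group, 3 arrays). The labels do not give the pups' litter or sex, nor whether RNA was pooled, so the p-values measure the spread between these arrays, which may be partly technical. The comparison asks whether transcript levels in the pups' fat went with the vitamin D content of the maternal feed.

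The first and rate-limiting step of heme synthesis, 5-aminolevulinate synthase, is encoded by a pair of genes. Alas1 serves all cells and supplies cytochromes and other heme enzymes, and in liver its transcript is repressed by heme itself. Alas2, on the X chromosome, serves developing red cells, where iron regulatory proteins control its translation. Most heme of the body goes into hemoglobin, and reticulocytes, the young red cells of the blood, still carry the transcripts of Alas2, the globins and Slc4a1. Blood left in dissected tissue therefore brings such transcripts with it, and newborn rats have many reticulocytes.

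RefSeq promoter windows of the GRCr8 assembly, from 250 bases before to 50 after an annotated transcript start, were found for 7 of 9 members. Shown are 3, those of the general and the erythroid synthase and of the enzyme that follows them. The Alas1 window is chr8:115768593-115768892 on the minus strand, and its capitals mark the palindrome GCATGC, the centre of the site for nuclear respiratory factor 1. The Alas2 window is chrX:22895200-22895499 on the plus strand, with the GATA-factor core GATAA in capitals. It lies inside the annotated gene, around the start of 1 of its transcripts and not at the gene's outermost start, base 22890650. The window therefore need not hold the erythroid promoter, and no contrast of the synthase promoters is drawn from it. The Alad window is chr5:80987852-80988151 on the minus strand, with the E-box CACGTG and the GC box GGGCGG (or CCGCCC) in capitals.
Alas1: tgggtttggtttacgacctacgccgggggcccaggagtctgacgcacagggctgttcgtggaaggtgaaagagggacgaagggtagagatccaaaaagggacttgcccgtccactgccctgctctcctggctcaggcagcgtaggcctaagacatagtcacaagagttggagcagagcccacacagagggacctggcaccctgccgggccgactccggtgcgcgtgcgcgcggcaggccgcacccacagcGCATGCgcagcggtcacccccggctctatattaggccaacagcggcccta
Alas2: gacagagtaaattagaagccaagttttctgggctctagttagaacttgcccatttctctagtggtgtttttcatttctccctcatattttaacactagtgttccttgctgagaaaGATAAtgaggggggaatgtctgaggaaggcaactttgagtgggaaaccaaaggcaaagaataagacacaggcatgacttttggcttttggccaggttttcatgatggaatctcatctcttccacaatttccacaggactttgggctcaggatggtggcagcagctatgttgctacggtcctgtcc
Alad: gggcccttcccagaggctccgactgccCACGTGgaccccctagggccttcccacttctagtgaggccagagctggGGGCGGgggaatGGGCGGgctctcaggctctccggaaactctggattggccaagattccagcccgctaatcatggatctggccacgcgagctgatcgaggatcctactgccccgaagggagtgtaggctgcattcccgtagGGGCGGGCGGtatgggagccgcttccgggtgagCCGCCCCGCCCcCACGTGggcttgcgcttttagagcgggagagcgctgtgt
Each motif was searched on both strands. GCATGC was found in 1 of the 7 member windows, Alas1, and in 7.16% of 33469 rat promoter windows of this length. GATAA or its complement TTATC was found in 2 of the 7, Alas2 (the window inside the gene) and Fech, against 26.5% of all windows. CACGTG was in 2 of 7, Alad and Urod, against 6.42%, and GGGCGG in 4 of 7 (Alad, Urod, Ppox and Fech), against 33.1%. The CACCC box of Klf-type factors was in 3 of 7 (Alas1, Alad and Fech), against 54.9%, and TATAAA in 0 of 7, against 14.2%. In the Alad window 2 pairs of GC boxes share bases with each other. The motifs, and those set in capitals in each window, were chosen after the windows were seen, and GCATGC replaced a longer form of the nuclear respiratory factor 1 site that was searched first and is found in fewer windows, so the shares are no support for any of them. These matches describe the letters of the windows and are not measured binding sites.

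Across the chain, 7 of the 8 tested members had lower values in the deficient group, and Cpox had a higher one. The median log2 change of the 8 was -0.25, beside -0.05 over all 18625 tested probe sets, of which 55.3% were lower. With limma and Benjamini-Hochberg adjustment over all tested probe sets, 0 members passed the threshold of 0.05, and neither did any other probe set (0% called). At an unadjusted p under 0.05 there were 3 members, Alas2, Alad and Urod, all lower. Of all tested probe sets 14.2% were at that p in either direction and 8.18% as lower. This number of members fell to 1 when deficient array 1, deficient array 2 or adequate array 1 was dropped. It became 5 when deficient array 3 was dropped. The whole table moved likewise, from 2647 of 18625 probe sets to 1649, 906, 1075 and 6572 in that order, so the shift was not particular to the members. For Alas2, Alad and Urod the deficient arrays all lay below the adequate arrays, as was so for 10.8% of all tested probe sets. With deficient array 3 as the only deficient array, 6 of the 8 were lower, beside 49.7% of all tested probe sets. That setting has 1 deficient array and so no spread of its own in the deficient group, and its values are given without an error.

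**Figure D1:**
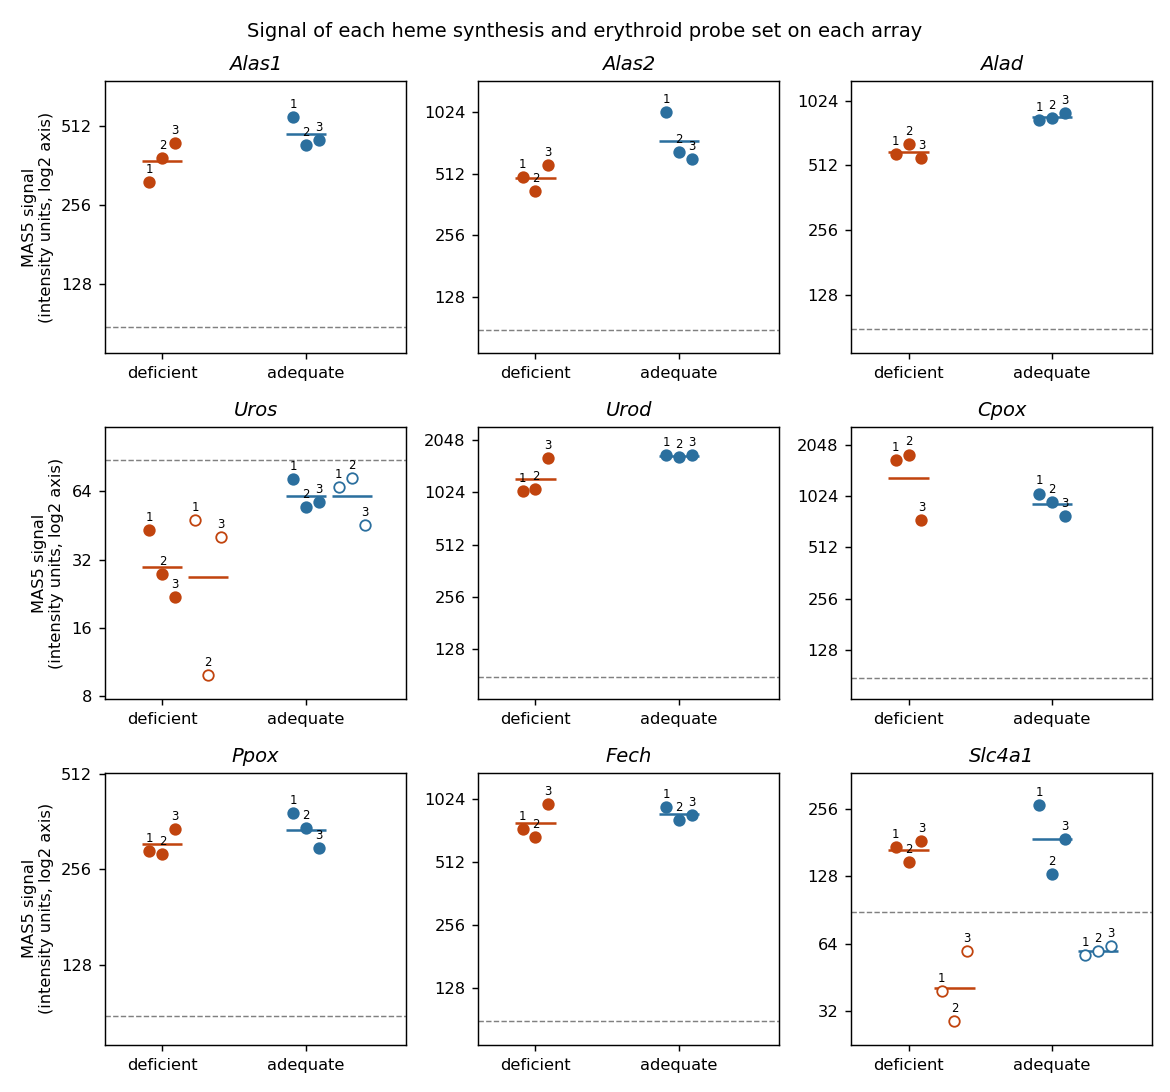
MAS5 signal (intensity units, log2 axis) of every probe set of the 9 genes, deficient arrays in orange at the left and adequate arrays in blue at the right, with the replicate number beside each point. Bars are geometric means, open circles are the second probe set of a gene, and the dashed line is the cutoff of 88.2. Among the tested probe sets, the arrays of Alas2, Alad and Urod separate by group, though deficient array 3 lies next to the adequate arrays for Urod. Deficient arrays 1 and 2 stand away from the other 4 for Urod and Cpox, and both Uros probe sets lie under the cutoff.

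Array quality went with some of these values. Deficient arrays 1 and 2 lay at 43.1 and 46.4 on the first principal component, which held 49.5% of the variance, and the other 4 arrays between -26.2 and -18.5. On these 2 arrays the bacterial hybridisation controls read 7.19 and 10.1 times the adequate mean. Their beta-actin 3' over 5' ratio was 7.56 and 6.80, against 2.35 on deficient array 3 and 2.39 to 4.81 on the adequate arrays. The same ratio for GAPDH differed less, with 1.71 and 1.36, against 1.09 on deficient array 3 and 1.13 to 1.30 on the adequate arrays. Of all tested probe sets, 26% had deficient arrays 1 and 2 below the other 4 arrays and 19.1% had them above. Adequate array 1 had a signal of 9.20 for the Y-linked gene Eif2s3y, where the other 5 arrays had 1751 to 3243, but its 1502 for Uty, a second Y-linked gene, lay within the 983 to 2765 of the others. Of the 14 adipocyte markers listed, 7 were under the cutoff, among them Adipoq, Plin1 and Pparg, while the fatty acid binding protein gene Fabp4 read 1581 to 2821 on the deficient and 2021 to 2451 on the adequate arrays. The part of these differences in the results below was not tested beyond the values given beside each result.

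The erythroid synthase Alas2 read 494, 420 and 565 on deficient arrays 1, 2 and 3, against 1025, 649.7 and 603 on adequate arrays 1, 2 and 3. All deficient arrays lay below all adequate arrays, but deficient array 3 and adequate array 3 were close, and adequate array 1 stood far above the rest. The mean log2 signal was 8.94 ± 0.21 in the deficient and 9.53 ± 0.41 in the adequate group (SD, n = 3 each), a fold of 0.663 and a log2 change of -0.59 ± 0.23 (SE), with an adjusted p of 0.344 in limma. Without adequate array 1 the log2 change was -0.35 ± 0.22 (SE), and with deficient array 3 alone it was -0.39.

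The general synthase Alas1 read 312, 386 and 441 on the deficient arrays, against 552, 433 and 449.6 on the adequate arrays. The groups overlapped, since deficient array 3 exceeded adequate array 2. Its log2 change was -0.34 ± 0.20 (SE), a fold of 0.791, with a 95% interval of -0.78 to 0.11 and an adjusted p of 0.420 in limma. The log2 change of Alas1 was -0.11 with deficient array 3 alone.

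To compare the erythroid with the general synthase, log2 Alas2 minus log2 Alas1 was taken within each array, because the levels of different probe sets cannot be set against each other. Relative to the adequate mean, this difference was 0.03, -0.51 and -0.28 on the deficient arrays and 0.26, -0.05 and -0.21 on the adequate arrays, so the groups overlapped. The change of Alas2 minus that of Alas1 was -0.25 on the log2 scale, with SDs of 0.27 in the deficient and 0.24 in the adequate group. An exact two-sided permutation test gave p = 0.4, where 3 against 3 arrays can reach no less than 0.1. A difference between the 2 synthases in their response was not detectable with these arrays.

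Alad, which joins 2 molecules of 5-aminolevulinate to porphobilinogen in the cytosol, had the smallest unadjusted p of the 8 tested members. It read 576, 642 and 555 on the deficient arrays, against 828, 846 and 899 on the adequate arrays. Every deficient array was low, including deficient array 3, which was the lowest of the 6. The mean log2 signal of Alad was 9.20 ± 0.11 in the deficient and 9.74 ± 0.06 in the adequate group (SD, n = 3 each), a fold of 0.688. Its log2 change of -0.54 ± 0.16 (SE) had an unadjusted p of 0.00585, rank 251 among the 18625 probe sets, and an adjusted p of 0.344 in limma. With deficient array 3 as the only deficient array the log2 change was -0.63, a value of 1 array, and without adequate array 1 it was -0.56 ± 0.20.

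Uros, which closes the linear tetrapyrrole to the uroporphyrinogen ring, was dim with both probe sets. The first read 43.1, 27.5 and 21.8 on the deficient arrays, against 72.8, 54.4 and 57.4 on the adequate arrays. The second read 47.7, 9.97 and 40.4 on the deficient arrays, against 67.0, 73.0 and 45.7 on the adequate arrays. The deficient arrays of the first probe set all lay lower, while those of the second overlapped the adequate ones, and since all these signals were under the cutoff no fold is given.

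Urod, which decarboxylates uroporphyrinogen in the cytosol, read 1038, 1072 and 1617 on the deficient arrays, against 1666, 1619.9 and 1677 on the adequate arrays. Deficient arrays 1 and 2 were low, and deficient array 3 lay next to the adequate arrays, which were close together. The log2 change of Urod was -0.44 ± 0.19 (SE), a fold of 0.735, with an adjusted p of 0.344 in limma. With deficient array 3 alone it was -0.03, and without that array -0.65 ± 0.12 with an adjusted p of 0.00776.

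Cpox, the oxidase that makes protoporphyrinogen between the mitochondrial membranes, went the other way on the same arrays. It read 1669, 1793 and 737 on the deficient arrays, against 1059, 947 and 778 on the adequate arrays. Deficient arrays 1 and 2 were the highest of the 6 and deficient array 3 was the lowest. The log2 change of Cpox was 0.50 ± 0.30 (SE), a fold of 1.41, with a 95% interval of -0.17 to 1.17 and an adjusted p of 0.430 in limma. The value was -0.32 with deficient array 3 alone, and without that array it was 0.91 ± 0.16 with an adjusted p of 0.00568.

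Ppox and Fech carry out the closing steps in the mitochondrion, the oxidation to protoporphyrin and the insertion of iron. Ppox read 293, 287 and 344 on the deficient arrays, against 385, 347 and 299 on the adequate arrays, a log2 change of -0.15 ± 0.20 (SE). Fech read 734, 671 and 970.3 on the deficient arrays, against 938, 807 and 854 on the adequate arrays, a log2 change of -0.14 ± 0.18 (SE). Both overlapped between the groups, and both were lowest on deficient arrays 1 and 2. The 95% intervals were -0.59 to 0.28 for Ppox and -0.55 to 0.26 for Fech, with adjusted p of 0.702 and 0.698 in limma. With deficient array 3 alone the log2 changes were 0.01 for Ppox and 0.17 for Fech.

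Slc4a1, which exchanges chloride for bicarbonate across the red cell membrane, read 173, 148 and 183 with its brighter probe set on the deficient arrays, against 266, 131 and 188 on the adequate arrays. The deficient arrays lay within the range of the adequate arrays, whose spread came from array 1 at the top and array 2 at the bottom. The log2 change of Slc4a1 was -0.16 ± 0.28 (SE), with a 95% interval of -0.78 to 0.46 and an adjusted p of 0.790 in limma. Without adequate array 1 it was 0.09 ± 0.30. The dimmer probe set read 39.3, 29.0 and 59.0 on the deficient arrays, against 56.6, 59.0 and 62.6 on the adequate arrays, all under the cutoff, and its adequate arrays did not show the spread of the brighter one.

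**Figure D2:**
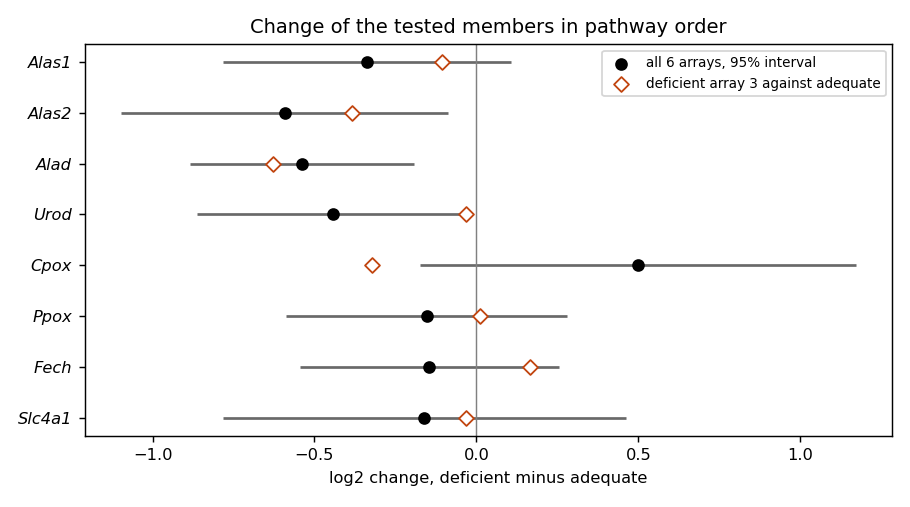
Log2 change (deficient minus adequate) of the 8 tested members in the order of the pathway, with Slc4a1 last. Black points and bars are the fit over all 6 arrays with its 95% interval, and open diamonds set deficient array 3 alone against the adequate arrays, where Cpox is at -0.32 and Alad at -0.63.

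The arrays thus sorted the members in different ways. Alad was low on all 3 deficient arrays by 0.42 to 0.63 on the log2 scale relative to the adequate mean. Alas2 was low on all 3 as well, at -0.58, -0.81 and -0.39. Along with Urod, these were the tested members whose deficient arrays all lay below all adequate arrays, beside 10.8% of all tested probe sets. For 5 members (Alas1, Alas2, Urod, Ppox and Fech) deficient arrays 1 and 2 were below the other 4 arrays, and for Cpox they were above, beside 26% and 19.1% of all tested probe sets. Adequate array 1 was the highest of the 6 arrays for 4 of the 8 members, Alas1, Alas2, Ppox and Slc4a1, beside 16.6% of all tested probe sets. Leaving out deficient array 3 brought 3 members past the adjusted threshold in limma, Alad and Urod lower and Cpox higher, where 10.7% of all tested probe sets passed as lower and 8.75% as higher, 19.4% in all.

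**Figure D3:**
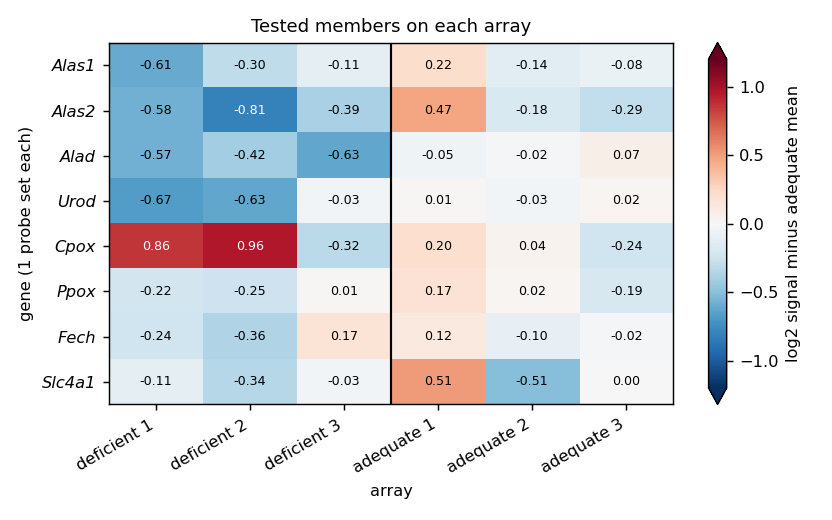
Log2 signal of the 8 tested members on each array (deficient left of the line, adequate right), minus the mean of the adequate arrays, red above and blue below it. Alad is at -0.57, -0.42 and -0.63 on the deficient arrays, while Urod is at -0.67, -0.63 and -0.03 and Cpox at 0.86, 0.96 and -0.32.

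Red cell transcripts were read through a list of 55 erythroid genes, of which 38 had a probe set and 23 were tested. In the deficient group 13 were lower and 10 higher (median log2 change -0.07), and 0 passed the adjusted threshold in limma. At an unadjusted p under 0.05 there were 2 lower and 1 higher, 3 of the 23, beside 14.2% of all tested probe sets. In bulk tissue fewer red cells and less transcript per red cell cannot be told apart. Relative to the adequate mean, the list's median was 0.03, -0.12 and -0.15 on the deficient arrays and 0.10, -0.06 and -0.06 on the adequate arrays.

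Among the globins, Hbb was high where Alas2 was lowest. Hbb, the beta chain of hemoglobin, read 32957, 34574 and 19495 on the deficient arrays, against 19797, 20022 and 18699 on the adequate arrays. Deficient arrays 1 and 2 were high, and deficient array 3 lay among the adequate arrays. The log2 change of Hbb was 0.53 ± 0.24 (SE), with an adjusted p of 0.350 in limma, and its probe set is of a type that can bind related transcripts. The alpha chain gene Hba-a3 read 4745, 2742 and 1871 on the deficient arrays, against 3595, 2297 and 1635 on the adequate arrays, a log2 change of 0.28 ± 0.34. The groups overlapped, and array 1 was the highest in each. The embryonic chain gene Hbe1 read 189, 138 and 125 on the deficient arrays, against 258, 186 and 151 on the adequate arrays, a log2 change of -0.38 ± 0.27. Hbg1, a further chain of the beta family, overlapped, with a log2 change of 0.04 ± 0.31, and Hbe2 and Hbz were under the cutoff, with Hbz at no more than 5.96 on any array.

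Of the 23 tested genes of the list, 2 had all deficient arrays below all adequate arrays, Slc2a1 and Bpgm, beside 10.8% of all tested probe sets. Bpgm, which makes the phosphoglycerate that loosens oxygen from hemoglobin, read 764, 923 and 979 on the deficient arrays, against 1118, 1083 and 1031 on the adequate arrays, a log2 change of -0.29 ± 0.16 (SE) with an adjusted p of 0.401 in limma. Ahsp, the chaperone of alpha globin, read 398, 339 and 343 on the deficient arrays, against 611, 269 and 339 on the adequate arrays. Hemgn, a nuclear protein of erythroid precursors, read 119, 98.8 and 104 on the deficient arrays, against 177, 106 and 110.3 on the adequate arrays. In Ahsp and Hemgn the groups overlapped, and adequate array 1 stood above the other 5 arrays, as it did for Alas2 and Slc4a1. Adequate array 1 was the highest of the 6 arrays for 9 of the 23 tested genes, beside the 16.6% over all tested probe sets. These 9 also include Hbe1, Rhd and Car1. This was not particular to the erythroid list, since it held for 9 of 14 tested macrophage and 6 of 9 tested lymphocyte markers. It held for 3 of 23 tested genes of heme transport and its partners and 1 of 9 tested endothelial markers. Ahsp, Hemgn, Bpgm, Rhd and Car1 were picked after their values were seen.

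Of the transcription factors of red cell formation, Gata1, Klf1, Nfe2 and Gfi1b were dim, while Tal1 and the cofactor Lmo2 were above the cutoff on every array. The transcription factor Gata1 read 76.6, 74.3 and 53.0 on the deficient arrays, against 55.8, 30.2 and 49.7 on the adequate arrays, and Klf1 read 13.7, 35.1 and 51.1 on the deficient arrays, against 54.8, 41.9 and 45.6 on the adequate arrays. Both were under the cutoff on these means, as were, besides Nfe2 and Gfi1b, Epb42, Ank1, Sptb and Rhag, so 15 of the 38 genes with a probe set were not tested. The erythropoietin receptor gene Epor read 93.7, 69.9 and 136 on the deficient arrays, against 115, 134 and 148 on the adequate arrays, a log2 change of -0.45 ± 0.29 (SE). The list's members with the smallest unadjusted p were Aqp1, a water channel of red cells and endothelium, at -0.53 ± 0.20, the transcription factor Tal1 at 0.47 ± 0.20, and the glucose transporter Slc2a1, whose groups did not overlap, at -0.45 ± 0.20, each with an adjusted p between 0.344 and 0.350. The summed signal of the list without globins was 14834, 13947 and 13101 on the deficient arrays and 15278, 13597 and 14002 on the adequate arrays.

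**Figure D4:**
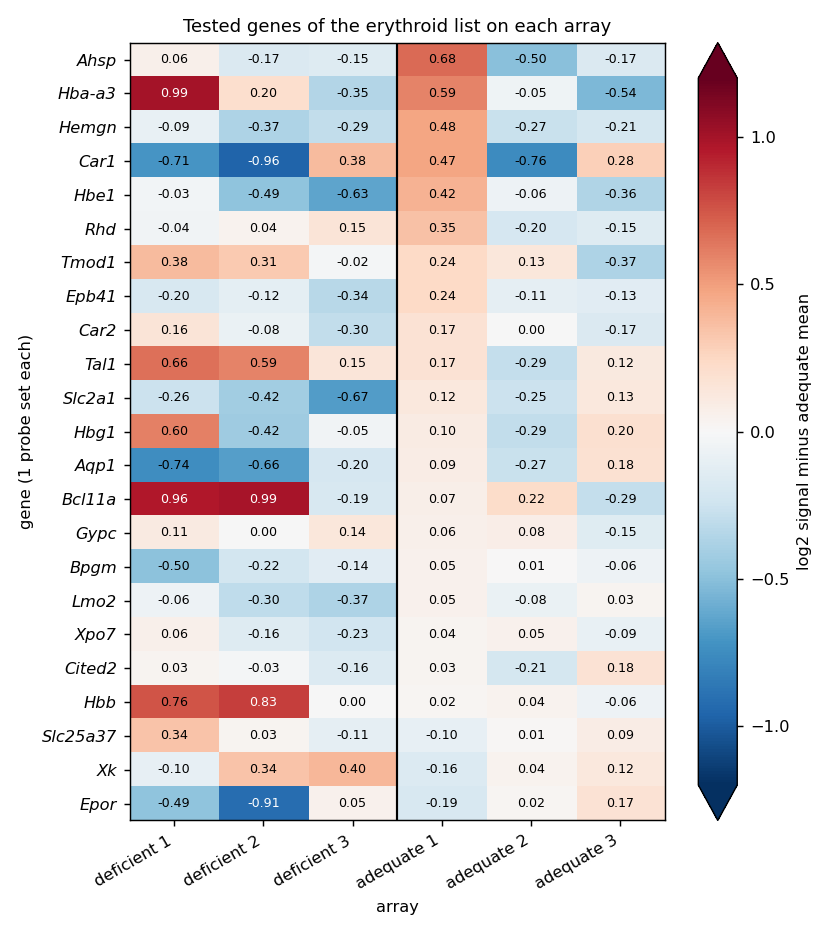
Log2 signal of the 23 tested genes of the erythroid list on each array (deficient left of the line, adequate right), minus the mean of the adequate arrays, ordered by the value on adequate array 1. Ahsp, Hba-a3 and Hemgn are highest among the adequate arrays on array 1, and Hbb is at 0.76, 0.83 and 0.00 on the deficient arrays.

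Genes that feed heme synthesis or carry heme and its precursors were described by a list of 29, of which 23 were tested. In the deficient group 16 were lower and 7 higher (median log2 change -0.20), beside 55.3% lower among all tested probe sets. Of the 23, 0 passed the adjusted threshold in limma. Deficient arrays 1 and 2 were below the other 4 arrays for 11 of the 23, beside 26% of all tested probe sets. Slc25a39, a mitochondrial carrier of glutathione needed for iron-sulfur clusters, read 1425, 1269 and 1996 on the deficient arrays, against 2584, 2003 and 2198 on the adequate arrays. Its groups did not overlap, although deficient array 3 and adequate array 2 were nearly equal, and its log2 change was -0.55 ± 0.19 (SE). The iron-sulfur assembly genes Lyrm4 and Fdx2 had log2 changes of -0.44 ± 0.18 and -0.57 ± 0.26. Clpx, a mitochondrial unfoldase that acts on the synthases, had 0.37 ± 0.17. Slc25a38, which carries glycine into mitochondria for the first step, had -0.37 ± 0.24, and the heme exporter Flvcr1 had 0.19 ± 0.20. Each of these 6 overlapped between the groups except Slc25a39 and Lyrm4, and none passed.

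Heme breakdown and iron handling showed no member past the adjusted threshold in limma either. Of 8 tested genes of heme breakdown and scavenging, 4 were lower and 4 higher, with a median log2 change of 0.01 and 0 at an unadjusted p under 0.05. Hmox1, the inducible heme oxygenase, read 495, 886 and 1531 on the deficient arrays, against 506, 1835 and 609.6 on the adequate arrays. Its spread within each group exceeded the difference between them, a log2 change of 0.08 ± 0.49 (SE). Blvrb, a biliverdin reductase, had the smallest p of that list with a log2 change of -0.36 ± 0.20, and Cd163, the macrophage receptor for hemoglobin, had 0.10 ± 0.22.

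Of 17 tested iron genes, 6 were lower and 11 higher in the deficient group, with a median log2 change of 0.13 and 0 at an unadjusted p under 0.05. Tfrc, the transferrin receptor, read 1740.3, 2158 and 1672 on the deficient arrays, against 1567, 1734 and 1614 on the adequate arrays, a log2 change of 0.17 ± 0.16 (SE). The groups overlapped. Ireb2, an iron regulatory protein that binds the Alas2 transcript, read 169, 157 and 173 on the deficient arrays, against 140.3, 144 and 122 on the adequate arrays. Its groups did not overlap, with a log2 change of 0.30 ± 0.22, an adjusted p of 0.500 in limma and a similar level on all 3 deficient arrays. The ferroxidase gene Heph had -0.30 ± 0.14, with all deficient arrays below all adequate arrays. The iron chaperone and RNA-binding protein gene Pcbp2 had 0.38 ± 0.20. Its groups overlapped, with 11821, 9298 and 7308 on the deficient arrays, against 6732, 7260 and 7532 on the adequate arrays. Deficient arrays 1 and 2 were above the other 4 arrays for 6 of the 17 iron genes, beside 19.1% of all tested probe sets.

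Heme proteins and their partners outside the red cell had 12 of 19 tested members lower (median log2 change -0.12), 4 of them at an unadjusted p under 0.05, beside 55.3% and 8.18% of all tested probe sets. These 4 were Cyb5r3, the reductase of cytochrome b5, at -0.47 ± 0.18 (SE), neuroglobin (Ngb) at -0.67 ± 0.27, the heme-binding anchor of complex II Sdhd at -0.44 ± 0.19, and the endothelial nitric oxide synthase Nos3 at -0.80 ± 0.34. In Sdhd and Nos3 the groups overlapped, with deficient array 3 inside the adequate range, and in Cyb5r3 and Ngb they did not. Deficient arrays 1 and 2 were below the other 4 arrays for 8 of the 19, beside the same 26%. Regulators of Alas1 known from liver and muscle had 6 tested members, 2 lower and 4 higher. Ppargc1b, a coactivator of mitochondrial genes, read 488, 374 and 362 on the deficient arrays, against 268, 195 and 239.7 on the adequate arrays. The groups did not overlap, with an adjusted p of 0.344 in limma and a log2 change of 0.80 ± 0.21. Ppargc1a, the coactivator that raises Alas1 in fasted mouse liver, had 0.09 ± 0.24, and the clock repressor Nr1d1, whose ligand is heme, had 0.41 ± 0.38.

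Markers of other cell types that hold heme enzymes or red cells were read on the same arrays. The counts of lower markers given here stand beside 55.3% lower among all tested probe sets. Hepatocyte markers, included because newborn liver forms blood, had 8 of 8 tested members lower. Their median log2 change was -0.53, and 8 of 16 with a probe set were under the cutoff. Their summed signal was 3618, 1911 and 2409 on the deficient arrays, against 2360.1, 2875 and 8490.1 on the adequate arrays, so adequate array 3 stood far above the rest. Alb read 1964, 643 and 995 on the deficient arrays, against 676, 1199 and 3958 on the adequate arrays. No tested member of the heme list had its highest value on adequate array 3 apart from Alad and Urod, at 899 and 1677. Macrophage markers had 12 of 14 tested members lower, and for 10 of the 14 deficient arrays 1 and 2 were below the other 4 arrays, again beside 26%. Their summed signal was 15214, 16656 and 19771 on the deficient arrays, against 22922, 18833 and 21506 on the adequate arrays. Tyrobp, with the smallest p of that list, read 498, 440 and 1480 on the deficient arrays, against 1737, 1179 and 1603 on the adequate arrays. Its groups overlapped, with a log2 change of -1.11 ± 0.39 (SE). Lymphocyte markers had 9 of 9 tested members lower, with a summed signal of 3913, 3733 and 5712 on the deficient arrays, against 7939.8, 4673 and 6951 on the adequate arrays, and Cd247 at -0.94 ± 0.34. Endothelial markers had 6 of 9 lower, with sums of 12436 to 14717 on the deficient and 15214 to 16670 on the adequate arrays. Tie1, with the smallest p of that list, was at -0.74 ± 0.20. The 3 higher were Flt1 at 0.25 ± 0.33, Pecam1 at 0.16 ± 0.22 and Tek at 0.005 ± 0.14. Platelet and megakaryocyte markers, from the lineage nearest to the red cell, had 3 of 6 with a probe set under the cutoff. Of the 3 tested, 2 were lower, Itgb3 at -0.52 ± 0.18 and Pf4 at -0.36 ± 0.15, while Itga2b was higher at 0.28 ± 0.28. Their sums were 1858 to 2290 on the deficient and 2620 to 2799 on the adequate arrays, most of it from Itgb3 and Pf4. The part of these cells in the values of Alas2, Alad and Urod was not tested.

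The genes whose log2 signal over the 6 arrays ran most like that of a member were looked up among 10583 named genes, as a description of 6 points that share arrays and scaling. Closest to Alas2 were Serf2 (r = 0.996), Bcl2l11 (0.994), Ngfr (0.991), Ptpro (0.984) and Nradd (0.983), and 43 genes had an r of at least 0.95. Closest to Slc4a1 were Tnik (0.991), Smoc1 (0.977), P3h1 (0.972), Dhrs13 (0.971) and Phldb2 (0.970), and closest to Alas1 were Smim29 (0.996), Alkbh7 (0.989), Dcaf15 (0.987), Dnase1l3 (0.987) and Ctdspl (0.987). No gene of the erythroid list was among these 15. With only 23 tested genes of that list among the 10583, this says nothing about red cell genes. Among the tested members, Alas2 had r = 0.875 with Ppox, 0.816 with Alas1, 0.716 with Urod and 0.712 with Fech. It had 0.710 with Slc4a1, 0.586 with Alad and -0.460 with Cpox.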

How the data were processed

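Total RNA, labelled with biotin, was read on 1 Affymetrix rat expression array per sample. The deposited values are linear intensity signals per probe set, made with MAS5 and Affymetrix Expression Console, per the submitters' processing notes. Every array had a 2% trimmed mean of 500 when computed here, so an overall difference in RNA amount cannot be seen in them. The background settings are not stated there.

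Signals were log2 transformed with no offset. Control probe sets (57) were left out, as were those with a mean log2 signal under the 40th percentile (6.46), which left 18625. Deficient minus adequate was fitted on all 6 arrays with limma 3.58.1 in R 4.3.3 (variance trend, two-sided, Benjamini-Hochberg at 0.05). The number of arrays limits precision. The brightest probe set stood for a gene of a list. Named genes were all members, up to 4 genes per list with the smallest unadjusted p, a few genes fixed by name, and the 5 most alike to Alas1, Alas2 and Slc4a1. The members and lists were chosen with earlier results of these data known. The limma step was tested on simulated data. Alternatives covered scaling, filter, offset, variance model, array weights, replicate block, leaving out arrays, and averaging a gene's probe sets. Replicate numbers come from the titles and name no shared animal or litter. Figures were drawn with matplotlib 3.10.9.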

Additional observations from a re-analysis of the deposited data

How the results depend on the processing

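Of 135 values of single members under 17 alternatives, 128 kept their direction. Changing the filter, the variance model or the replicate block leaves a member's log2 change identical, so no direction could change there. Deficient array 3 alone and a term for the other 2 deficient arrays gave the same log2 changes and were counted separately. The 128 is therefore no measure of robustness. With deficient array 3 alone, or a term for the other 2 deficient arrays, Cpox was at -0.32, Ppox at 0.011 and Fech at 0.17 on the log2 scale. Slc4a1 ranged from -0.42 without adequate array 2 to 0.093 without adequate array 1. The members past the adjusted threshold in limma numbered 0 except with array weights, where they were 4 (Alas2, Alad, Urod and Cpox), and 0 to 3 when single arrays were left out. Over all probe sets the number past it was 0 except with array weights, 3462 (18.6%), and 0 to 3614 when single arrays were left out. Both upper ends came without deficient array 3. Probe sets at an unadjusted p under 0.05 numbered 2647 with all arrays, 906 without deficient array 2, 1649 without deficient array 1, 6572 without deficient array 3, 1075 without adequate array 1 and 1442 without adequate array 3. They were 1214 with deficient array 3 alone and 1072 with the term for the other 2. Members lower in the deficient group numbered 6 to 8 over these settings, against 7 of 8 in the report. The number tested differed, with 8 of 9 lower without a filter and 6 of 7 with a filter at the 60th percentile. Alas2 minus Alas1 stayed below 0 in each setting, from -0.39 to -0.12 when single arrays were left out. With the replicate number as a block, 0 probe sets passed the adjusted threshold and 3235 had an unadjusted p under 0.05. Deviations of same-numbered arrays correlated at 0.107, 0.153 and 0.00655, and 5 of 6 arrays correlated best with their own number, a hint from the data and not from the design. The cause of these shifts was not tested. Signals under the cutoff of 88.2 limit what can be read for dim members such as Uros.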
